A study of Tupaia belangeri with 6 samples.

Results

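The glycolysis, gluconeogenesis and glycogen genes described here are a list of 35 gene symbols, each of which matched exactly 1 of the 83605 features of the count matrices. They were measured by single-nucleus RNA sequencing (snRNA-seq) of frozen hippocampus from 6 tree shrews (TSs, Tupaia belangeri), with 1 library per animal. The ALP group held 3 naturally aged TSs that a maze test had singled out for cognitive deficits and that the study describes as having Alzheimer's-like pathology (ALP, labelled AD). The control group held 3 age-matched healthy TSs (labelled Normal). The study reports no transgene or drug treatment that set the groups apart, so they differ by selection of animals rather than by an intervention. Brain imaging under isoflurane came before tissue collection, and a glucose tracer was injected for positron emission tomography. Which of the sequenced animals were imaged, or fasted for the food maze, is not given in the sources. The age and sex of the animal behind each library are not given in the labels.

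Glycolysis splits glucose into pyruvate, which lactate dehydrogenases convert to lactate or which enters the mitochondrion through the pyruvate dehydrogenase complex. Glycogen is the branched store of glucose, held in the brain mainly by astrocytes. Gluconeogenic enzymes such as fructose-1,6-bisphosphatase bypass the irreversible steps of glycolysis by separate reactions. Many steps are carried out by isoenzymes encoded by separate genes, which differ between cell types in their regulation.

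A total of 28233 nuclei were kept, 14387 from control TSs and 13846 from ALP TSs, and the libraries held between 4159545 and 15412799 unique molecular identifiers (UMIs, counted RNA molecules) in them. Clusters were named from marker genes as astrocyte-like (Astro), endothelial-like (Endo), microglia-like (Micro), oligodendrocyte-like (Oligo), oligodendrocyte progenitor-like (OPC), dentate granule neuron-like (Gran), pyramidal neuron-like (Pyra) and inhibitory neuron-like (InN) nuclei. Each class rested on at least 3 detected markers of its own, although some markers had no UMI. The myelin gene MOBP had none even in Oligo-like nuclei, and the inhibitory markers GAD2 and SLC32A1 had none in InN-like nuclei. The excitatory marker NRGN had none in Gran-like and Pyra-like nuclei. The second control library was the smallest, with 1614 nuclei, and the libraries were uneven in Pyra-like nuclei, with 63 to 267 in control TSs and 415 to 538 in ALP TSs. Y-linked transcripts were present in Control 1, Control 2 and ALP 2 and were at 0 to 9 UMIs in the other 3 libraries. The p-values between ALP and control TSs measure the spread between the 3 animals of a group. Those of the fit over all classes, with library as a block, measure how far class differences vary between libraries.

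Detection divided the genes sharply. Among the 35, 22 had between 92 and 4221 UMIs in the kept nuclei and carry every comparison that follows. A further 5 had 1 to 9 UMIs, namely the aldolases ALDOA (4 UMIs) and ALDOC (1 UMI), the neuronal enolase ENO2 (5 UMIs), the pyruvate kinase PKM (6 UMIs) and the muscle-type bisphosphatase FBP2 (2 UMIs). The remaining 8, GPI, PFKL, TPI1, GAPDH, PGAM1, ENO1, LDHB and PGM1, had 0 UMIs there, and all but PGM1 also had 0 UMIs over all 37603 barcodes. Of the lower phase of glycolysis, which turns trioses into pyruvate, only PGK1 could therefore be compared under its own symbol. Together the genes made up between 554 and 662 CPM (UMIs scaled to the same library total) in each library, with overlapping ranges between the groups. Antisense-named features lie beside GBE1 (956 UMIs), PC (548 UMIs), PFKFB3 (519 UMIs) and PGM2 (451 UMIs), among others. Such features also carry the names of GAPDH (543 UMIs), LDHB (519 UMIs), ENO2 (426 UMIs) and GPI (288 UMIs). The own symbols of these latter genes held 0 to 5 UMIs. Whether counting used strand is not stated, so reads of all these genes and their antisense partners may not be separate.

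For 7 of these genes the matrices hold a second feature with the same symbol and a suffix and at least 200 UMIs, the pyruvate kinase-like PKMli1 (5047 UMIs) and the triosephosphate isomerase-like TPI1li1 (5682 UMIs) among them. These features were chosen after their values were seen, and whether each is the expressed gene or a copy sharing reads with it cannot be told from the matrices. They are given separately from the 35 genes throughout.

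The first question was which hippocampal cell classes carry which isoenzymes. For this, summed UMIs of each class in each library entered 1 fit, in which a class was compared with the mean of the other 7 classes by the edgeR quasi-likelihood test with library as a block. A gene was called at a Benjamini-Hochberg adjusted p under 0.05 and a log2 fold change beyond 1. Of the 35 genes 17 passed the filter on low counts in this fit, which gave 136 pairs of gene and class. Among them 22 pairs were called higher, against 14.9% of all pairs of gene and class, and 17 were called lower, against 13.2% of all pairs. Astro-like nuclei had 7 of the 17 genes higher and none lower, where 15% of all genes were higher and 13.5% lower, and the median log2 fold change of the 17 genes was 0.93 against -0.01 for all genes. Oligo-like nuclei had 3 genes higher and 5 lower, beside 13.6% and 22.5% of all genes. Endo-like nuclei had 4 higher (14.8% of all genes) and 2 lower (20.4%), and Micro-like nuclei 3 higher (11.9%) and 1 lower (6.24%). OPC-like nuclei had 0 higher (13.7%) and 2 lower (9%). In the neurons the counts were 2 higher (16.1%) and 4 lower (12.8%) for Gran-like, 1 higher (18.7%) and 2 lower (12.8%) for Pyra-like and 2 higher (15.2%) and 1 lower (8.67%) for InN-like nuclei. Among these 16 counts, that of genes higher in Astro-like nuclei lay farthest above the background. The genes had been left out of the genes that defined the clusters. Ependymal-like (0.669% of nuclei) and mural-like nuclei (0.368%) were also named but were not in this fit. Words such as highest or elsewhere therefore cover the 8 fitted classes only.

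**Figure D1:**
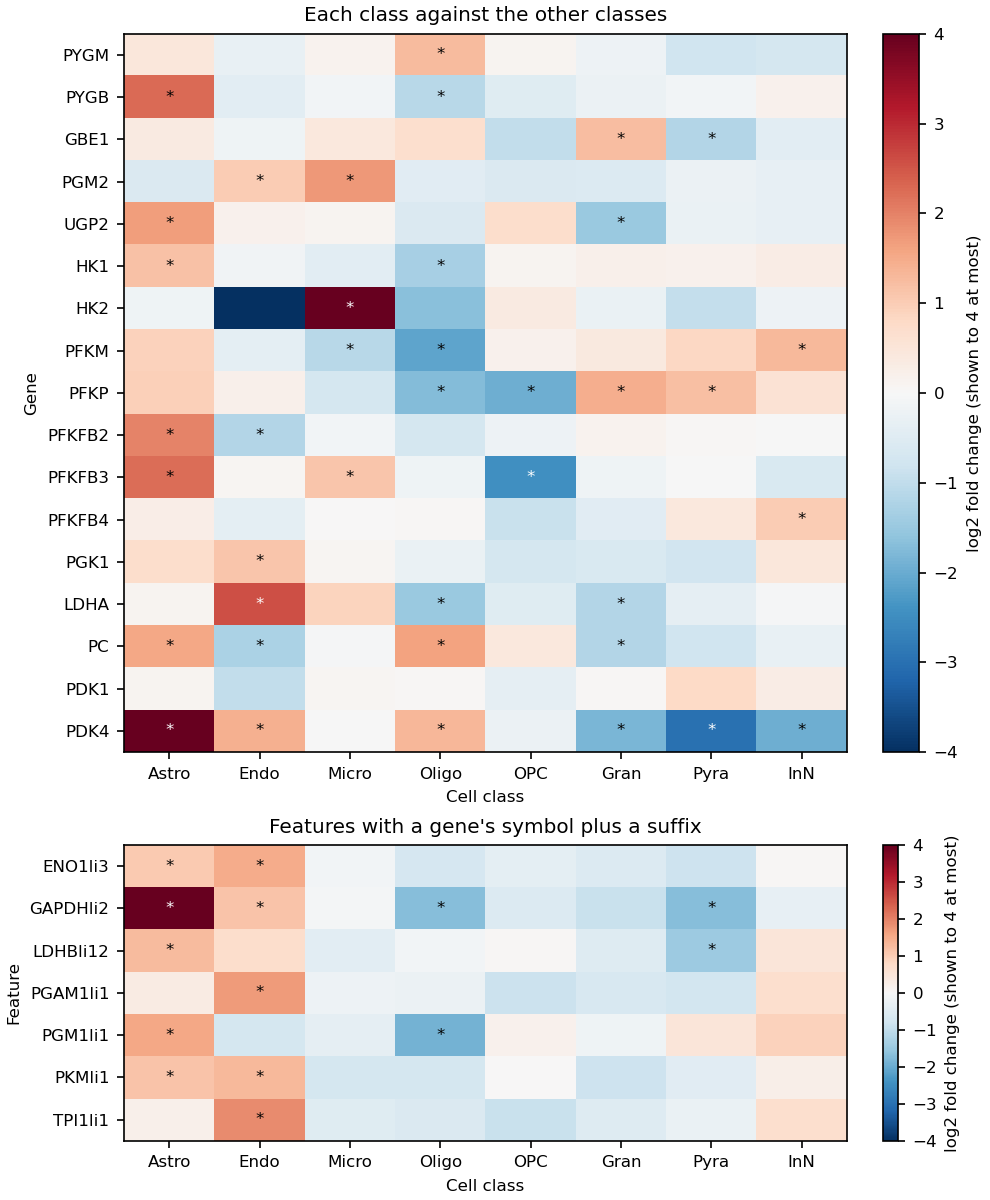
Log2 fold change of each cell class (columns) against the mean of the other classes, for the 17 genes that passed the filter (upper panel, rows) and for 7 features that carry such a gene's symbol with a suffix (lower panel). Red is higher and blue is lower, the scale stops at 4, and stars mark pairs called at an adjusted p under 0.05 and a log2 fold change beyond 1. HK2 stands out in Micro-like nuclei (7.51, beyond the scale) and PDK4 in Astro-like nuclei (4.28).

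Among the glycogen genes, PYGB, the brain form of glycogen phosphorylase that releases glucose units from glycogen, was highest in Astro-like nuclei. Its level there was 76.5 to 152 CPM over the 6 libraries, where CPM carry the TMM scaling factors of the fit over all classes. In Oligo-like nuclei it was 10.6 to 15.8 CPM. The range of Astro-like nuclei lay above that of every other class, and the log2 fold change was 2.28 (SE 0.131, edgeR adjusted p = 9.29e-24). PYGM, the muscle form of the same enzyme, was highest in Oligo-like nuclei, with a log2 fold change of 1.28 (SE 0.0947, edgeR adjusted p = 7.52e-19). UGP2, which makes the UDP-glucose used for glycogen synthesis, was highest in Astro-like nuclei (log2 fold change 1.67), and the branching enzyme gene GBE1 was highest in Gran-like nuclei (log2 fold change 1.24). PGM2, a phosphopentomutase related to the phosphoglucomutases, reached 16.9 to 56.1 CPM in Micro-like nuclei and 5.10 to 16.7 CPM in Astro-like nuclei. The Micro range lay just above that of Astro-like nuclei and overlapped those of Endo-like and Pyra-like nuclei. Its log2 fold change in Micro-like nuclei was 1.74 (SE 0.191, edgeR adjusted p = 9.68e-12).

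In the hexose phase of glycolysis, HK2, an inducible hexokinase that traps glucose as glucose-6-phosphate, was measured almost wholly in Micro-like nuclei. Its levels there were 225, 144 and 208 CPM in Control 1, 2 and 3 and 132, 161 and 129 CPM in ALP 1, 2 and 3, on the scale of the fit over all classes. In the other 7 classes no library exceeded 4.89 CPM, and Endo-like nuclei had no HK2 UMI. The log2 fold change of 7.51 (SE 0.196, edgeR adjusted p = 2.71e-39) is set partly by that class at 0 and is no measure of the exact ratio. HK2 UMIs made up 80.3% ± 8.16 (SD, n = 6) of the summed HK1 and HK2 UMIs in Micro-like nuclei and on average at most 3.50% in the other classes. HK1, the hexokinase of most brain cells, was highest in Astro-like nuclei (log2 fold change 1.17).

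Phosphofructokinase commits fructose-6-phosphate to glycolysis, and its platelet-type gene PFKP was highest in Gran-like nuclei. Its 6 values there were 99.1 to 197 CPM, beside 86.1 to 132 CPM in Pyra-like and 6.26 to 36.2 CPM in OPC-like nuclei. The ranges of Gran-like and Pyra-like nuclei overlapped, while that of OPC-like nuclei lay below both. The log2 fold changes were 1.46 in Gran-like (SE 0.107, edgeR adjusted p = 8.54e-19) and 1.20 in Pyra-like nuclei. PFKM, the muscle-type gene, was instead highest in InN-like nuclei (1.30) and lowest in Oligo-like nuclei (-2.12).

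The PFKFB enzymes set the level of fructose-2,6-bisphosphate, the strongest activator of phosphofructokinase. PFKFB3, whose product mainly makes this activator, was measured at 120 to 215 CPM in Astro-like and at 7.41 to 15.7 CPM in OPC-like nuclei. These ranges were the highest and the lowest of the 8 classes, with log2 fold changes of 2.23 (SE 0.0998, edgeR adjusted p = 2.38e-29) and -2.44. PFKFB2 was 38.4 to 75.0 CPM in Astro-like nuclei, and its values elsewhere reached at most 42.3 CPM, a single Micro value from the 44 Micro-like nuclei of Control 2. Its log2 fold change in Astro-like nuclei was 1.99 (SE 0.158, edgeR adjusted p = 1.82e-17). PFKFB4 was highest in InN-like nuclei (1.02), where it made up 30.03% of PFKFB UMIs against 4.93% in Astro-like nuclei.

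Of the triose phase only PGK1, the phosphoglycerate kinase that yields the first ATP of glycolysis, could be compared. It was 32.8 to 109 CPM in Endo-like and 33.0 to 71.3 CPM in Astro-like nuclei, ranges that overlapped. Its log2 fold change in Endo-like nuclei was 1.12 (SE 0.232, edgeR adjusted p = 5.35e-05). LDHA, the lactate dehydrogenase subunit found in tissues that make lactate, was 64.2 to 130 CPM in Endo-like nuclei and at most 46.3 CPM in any other class. Endo-like nuclei thus lay above all other classes in every library, with a log2 fold change of 2.57 (SE 0.207, edgeR adjusted p = 6.98e-17). PC, the mitochondrial pyruvate carboxylase, was 67.0 to 120 CPM in Oligo-like and 76.3 to 94.3 CPM in Astro-like nuclei, and at most 65.5 CPM elsewhere. Both glial classes were called higher, with log2 fold changes of 1.62 (SE 0.108, edgeR adjusted p = 6.43e-21) and 1.55.

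Pyruvate dehydrogenase kinases switch off the entry of pyruvate into the citric acid cycle. PDK4, the form induced in fasting muscle and heart, was 55.2 to 157 CPM in Astro-like nuclei and 0 to 6.92 CPM in each of the 3 neuronal classes. The log2 fold change of PDK4 among the fitted classes was 4.28 in Astro-like (SE 0.180, edgeR adjusted p = 1.09e-30) and -2.97 in Pyra-like nuclei. PDK1 was spread more evenly, with its highest level in Pyra-like nuclei at 13.8 to 45.8 CPM, and no class was called (highest log2 fold change 0.78). PDK4 made up 79.6% ± 5.12 of the summed PDK1, PDK2 and PDK4 UMIs in Astro-like nuclei (SD, n = 6) and 6.45% to 9.03% in the neuronal classes, where PDK1 made up 86.0% to 88.1%.

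**Figure D2:**
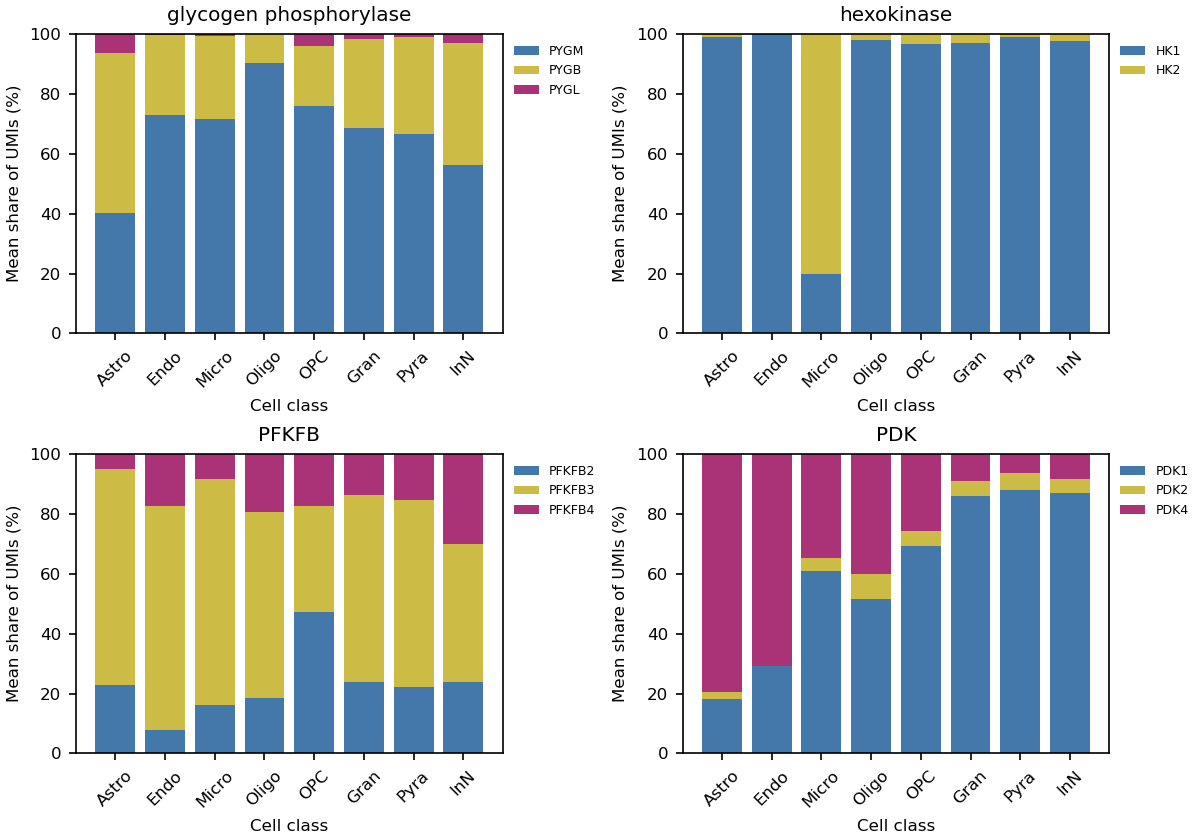
Share of each isoenzyme in the summed UMIs of its family (vertical axis, percent, mean of 6 libraries) by cell class, for glycogen phosphorylases, hexokinases, PFKFB enzymes and pyruvate dehydrogenase kinases. The glycogen phosphorylase UMIs of Oligo-like nuclei were 90.4% PYGM against 40.1% in Astro-like nuclei, HK2 held most of the hexokinase UMIs in Micro-like nuclei alone, and PDK4 most of the PDK UMIs in Astro-like and Endo-like nuclei. UMIs were counted from the 3′ end and are not per length, so shares are compared between classes rather than between genes.

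Shares within a family were compared across classes. PYGM made up 90.4% ± 4.38 (SD, n = 6) of glycogen phosphorylase UMIs in Oligo-like nuclei and 40.1% ± 3.74 in Astro-like nuclei, where PYGB made up 53.6% ± 3.74. The lowest PYGM share of a library in Oligo-like nuclei, 84.6%, lay above the highest in Astro-like nuclei. The plot of isoenzyme shares shows these families in every class. Endo-like shares rest on few UMIs, with 1 to 3 UMIs of a family in the poorest library, and so does the PDK share of Micro-like nuclei, with 1 UMI in the poorest library.

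The second question was which genes differed between ALP and control TSs within a class. Each class was fitted alone with 3 libraries per group, and a gene was called at an edgeR adjusted p under 0.05 over all genes tested in the class and a log2 fold change beyond 0.25. Over the 8 classes 103 pairs of gene and class passed the filter, of which 66 were higher and 37 lower in ALP TSs. Of these 103 pairs 3 were called, all higher, against 1.32% of all pairs tested. At an unadjusted p under 0.05 there were 14 pairs, 10 higher and 4 lower, against 16.7% of all pairs. Values of the groups did not overlap in 22 pairs, against 20.8% of all pairs. Apart from direction these counts were near the background. Of the 103 pairs 64.1% were higher in ALP TSs, beside 50.4% of all pairs tested. The pairs are not independent, since they repeat the same genes over classes of the same animals. The calls were FBP1 in Astro-like nuclei (1 of 18 genes, 0.267% of all genes there), PYGM in Gran-like nuclei (1 of 13, 1.69%) and PYGM in Oligo-like nuclei (1 of 16, 4.95%). No gene was called by edgeR in Micro-like (0.556% of all genes), OPC-like (1.60%), Endo-like, Pyra-like or InN-like nuclei (0% each).

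**Figure D3:**
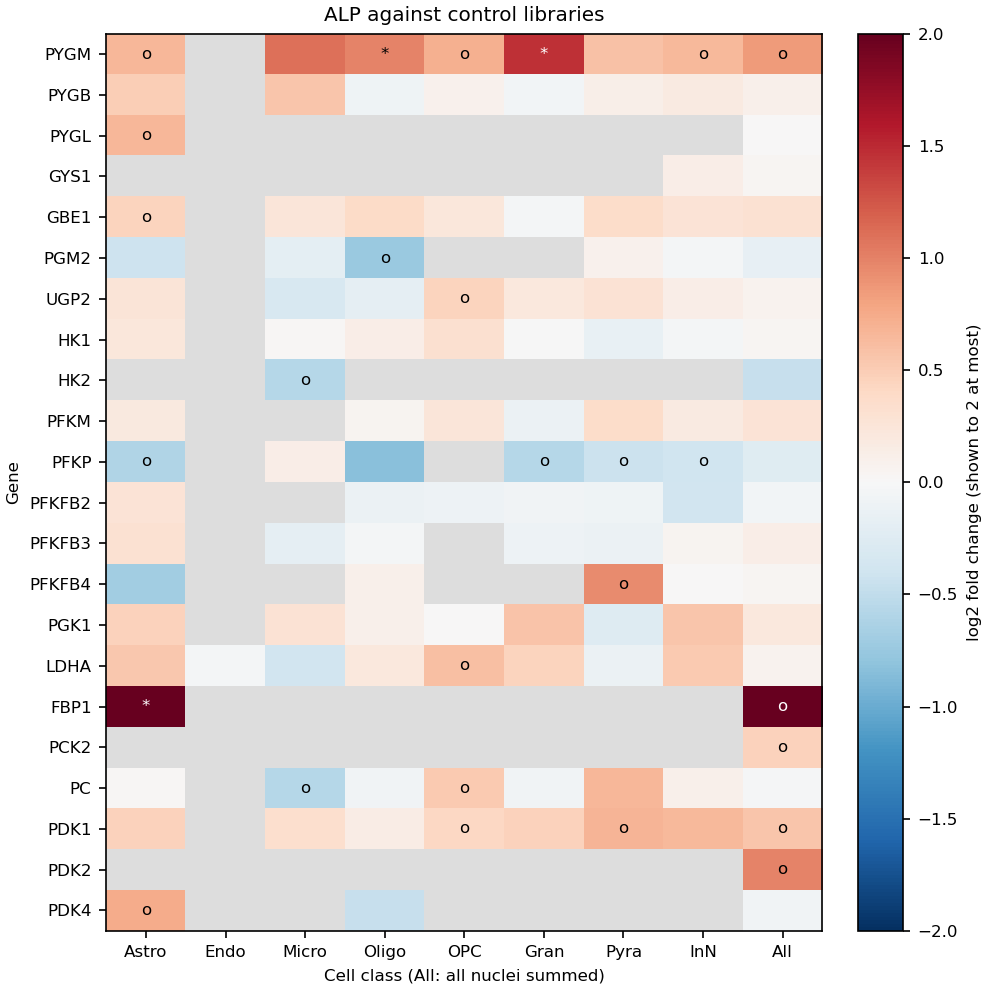
Log2 fold change of ALP against control TSs for each gene (rows) in each class and in all nuclei summed (columns). Red is higher and blue lower in ALP TSs, the scale stops at 2, grey marks pairs below the filter on low counts, stars mark the 3 called pairs and circles the other pairs in which the groups do not overlap. PYGM was above 0 in the 7 classes shown in which it passed the filter, and PFKP was below 0 without overlap in Astro, Gran, Pyra and InN.

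FBP1 (TSDBGID.13536) encodes fructose-1,6-bisphosphatase, the enzyme that opposes phosphofructokinase in gluconeogenesis. In Astro-like nuclei it had 2, 0 and 3 UMIs in Control 1, 2 and 3 and 25, 43 and 43 UMIs in ALP 1, 2 and 3. Scaled to the libraries these were 1.55, 0 and 1.91 CPM against 55.6, 31.8 and 51.3 CPM. The groups did not overlap, and the lowest ALP library stood far above the highest control library. The log2 fold change was 4.91 (SE 0.508, edgeR adjusted p = 0.00272). This was higher in 3 of 3 ALP libraries, and FBP1 remained called under all 15 alternative settings, with log2 fold changes of 4.62 to 5.54 and adjusted p of at most 0.0266. Its size rests on control libraries with 0 to 3 UMIs and is therefore imprecise. FBP1 passed the filter on low counts in Astro-like nuclei through the ALP libraries alone. Its place among the 18 genes tested there thus came from the group in which it was high.

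The share of Astro-like nuclei with an FBP1 UMI was 0.358%, 0% and 0.417% in Control 1, 2 and 3. It was 7.36%, 5.64% and 7.48% in ALP 1, 2 and 3. The 0 of 305 nuclei in Control 2 allows a share of up to 0.984%. Nuclei of control TSs were the deeper ones, with library medians of 2005 to 2268 UMIs against 1554 to 1744 UMIs in ALP TSs. After each nucleus was thinned to 1000 UMIs the share was 0.0855% ± 0.0741 for control TSs and 4.19% ± 0.851 for ALP TSs (SD, 3 libraries each, two-sided exact permutation p = 0.1). With 3 against 3 libraries 0.1 is the smallest p this test can give. The same share without thinning was 0.225% in control and 0.0671% in ALP Oligo-like nuclei, a class not known for gluconeogenesis. Pooled over the libraries of a group, it was higher in ALP TSs in the neurons. It was 0.306% and 0.842% in Gran-like, 0.983% and 2.70% in Pyra-like and 0.510% and 0.866% in InN-like nuclei. By library the groups did not overlap in Gran-like and InN-like nuclei. In Pyra-like nuclei they overlapped, with 1.498% in Control 1 and 1.442% in ALP 3. Other excitatory nuclei, outside these classes, had 0.278% and 1.25% and also overlapped, with 0.372% in Control 3 and 0% in ALP 3. The ALP nuclei were deeper there, with library medians of 960 to 3630 UMIs against 762 to 883 UMIs. None of these shares was thinned, so the Oligo-like share is not taken as a background for all classes.

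The 106 ALP Astro-like nuclei with an FBP1 UMI had a median of 1707 UMIs, and the other 1504 a median of 1700.5. Of them 2.83% were marked as doublets, beside 4.19% of the others. Of the Astro markers, a UMI of the water channel gene AQP4 was found in 50.9% beside 50.3%, of the glutamate transporter gene SLC1A3 in 98.1% beside 97.9% and of GFAP in 39.6% beside 34.4%. For SLC1A2 it was 61.3% beside 67.4%, for ALDH1L1 3.77% beside 7.31%, for SOX9 15.1% beside 14.1% and for GJA1 7.55% beside 5.59%. The markers of other classes that were summed in Astro-like nuclei were lower in ALP TSs or overlapped. Those of Gran-like, Pyra-like and ependymal-like nuclei were not summed. The 7 detected markers of Endo-like nuclei summed to 63.0 to 73.2 CPM in control and 38.8 to 53.9 CPM in ALP Astro-like nuclei, and the 4 general neuron markers to 363 to 517 and 254 to 326 CPM. The 8 Micro markers overlapped between the groups, at 369 to 443 and 421 to 476 CPM. The 7 Astro markers were slightly higher in ALP TSs, at 5195 to 5571 against 4257 to 5011 CPM.

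**Figure D4:**
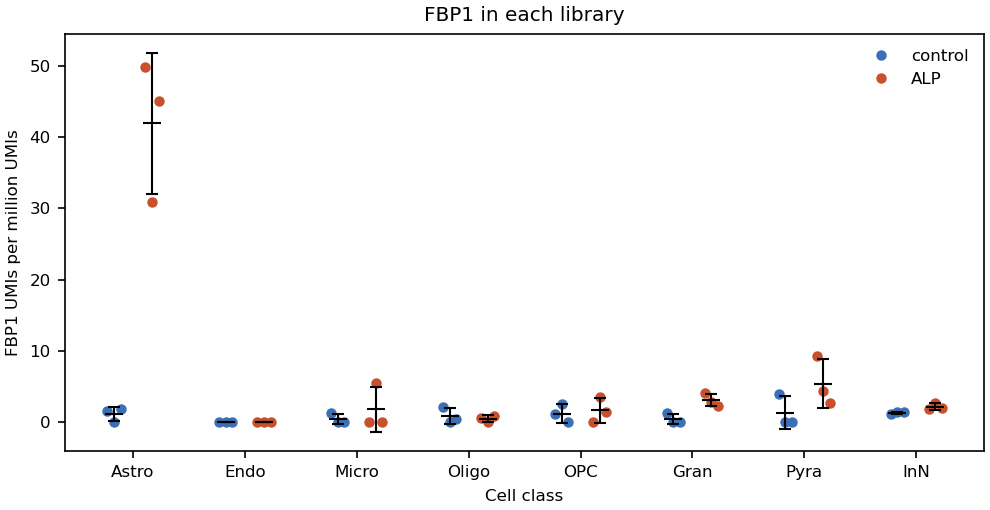
FBP1 level (vertical axis, CPM) in each library by cell class, without scaling factors, with points for control (blue) and ALP (red) libraries and black bars for group means ± SD. All 3 ALP libraries lie above 30 CPM and all 3 control libraries below 2 CPM in Astro-like nuclei.

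FBP1 did not pass the filter on low counts in the other 7 classes. Its UMIs there, control against ALP TSs, were 0 against 0 in Endo-like, 1 against 3 in Micro-like, 9 against 3 in Oligo-like and 3 against 4 in OPC-like nuclei. They were 4 against 11 in Gran-like, 4 against 38 in Pyra-like and 7 against 13 in InN-like nuclei. The 38 Pyra UMIs, 24, 8 and 6 by library, came from 1369 nuclei against 407 in control TSs, and the ALP nuclei were deeper, with library medians of 4786 to 5647 UMIs against 1759 to 4251 UMIs. Without the filter FBP1 could be tested in 6 of these classes and was called in none, with adjusted p of 0.538 to 0.725. No UMI in 366 control Endo-like nuclei allows a share of up to 0.820%, and none in 131 ALP nuclei a share of up to 2.29%. In all nuclei summed FBP1 was 1.43, 0.930 and 1.06 CPM in control and 7.23, 6.91 and 7.18 CPM in ALP TSs, a log2 fold change of 2.57 (SE 0.319, edgeR adjusted p = 0.0679). That difference did not pass the threshold although the groups did not overlap. In such sums more cells of a type and more RNA per cell cannot be told apart.

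PYGM (TSDBGID.3255) encodes the muscle form of glycogen phosphorylase, which is also made in glia. In Gran-like nuclei it was 31.8, 24.5 and 31.9 CPM in Control 1, 2 and 3, from 99, 5 and 30 UMIs. In ALP 1, 2 and 3 it was 85.3, 76.6 and 95.4 CPM, from 77, 103 and 111 UMIs. All ALP libraries were above all control libraries, with a log2 fold change of 1.47 (SE 0.207, edgeR adjusted p = 0.0161). The call was lost without ALP 1 (adjusted p = 0.118) and without ALP 3 (adjusted p = 0.144), while the log2 fold change stayed between 1.18 and 1.56 under all 15 alternatives. Over all genes these 2 omissions called 0 of 11818 and 0 of 10302 in Gran-like nuclei, beside 174 of 10280 with all libraries. The share of Gran-like nuclei with a PYGM UMI, thinned to 1000 UMIs, was 2.90% ± 0.760 for control TSs and 7.65% ± 1.17 for ALP TSs (SD, 3 libraries each, exact permutation p = 0.1).

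Markers of Oligo-like nuclei moved in the same direction in Gran-like nuclei, and their part in the result was not tested. The 7 markers summed to 201 to 564 CPM in control and 650 to 846 CPM in ALP TSs, with MBP and MOBP at 0. PYGM in Gran-like nuclei, without scaling factors, was 23.9 to 31.3 CPM in control and 75.0 to 86.9 CPM in ALP TSs. In the larger of the 2 Gran clusters, with 54.2% ALP nuclei, PYGM was 32.3, 24.3 and 33.1 CPM in control and 77.4, 78.5 and 87.7 CPM in ALP TSs.

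In Oligo-like nuclei, the class with the highest PYGM, its level was 74.2, 143 and 82.3 CPM in control TSs and 185, 178 and 185 CPM in ALP TSs. The ALP libraries were closely alike and all above the controls, of which Control 2, with 178 Oligo-like nuclei and 40 PYGM UMIs, was the highest. The log2 fold change was 0.99 (SE 0.230, edgeR adjusted p = 0.0348). The call was lost without Control 1 (adjusted p = 0.0880), Control 3 (0.156), ALP 1 (0.127) or ALP 3 (0.160). Over all genes these fits called 346 of 12458, 8 of 12113, 1 of 12923 and 2 of 12673, beside 577 of 11665 with all libraries. Thinned to 1000 UMIs, 9.92% ± 3.99 of control and 16.1% ± 0.156 of ALP Oligo-like nuclei had a PYGM UMI (SD, n = 3 each, exact permutation p = 0.1).

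The make-up of the Oligo-like nuclei differed between the groups, since 1 cluster held 88.5% ALP nuclei and another 19.8%. Within the first of these PYGM was 100, 135 and 95.3 CPM in control and 176, 189 and 170 CPM in ALP TSs. Within the second it was 68.4, 104 and 74.4 CPM in control and 206, 187 and 181 CPM in ALP TSs. The pooled ALP level was the higher in 6 of 6 Oligo clusters, and the groups did not overlap in 4 of them. The 8 OPC markers in Oligo-like nuclei summed to 1050 to 1516 CPM in control and 872 to 1039 CPM in ALP TSs, and their part in the result was not tested.

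**Figure D5:**
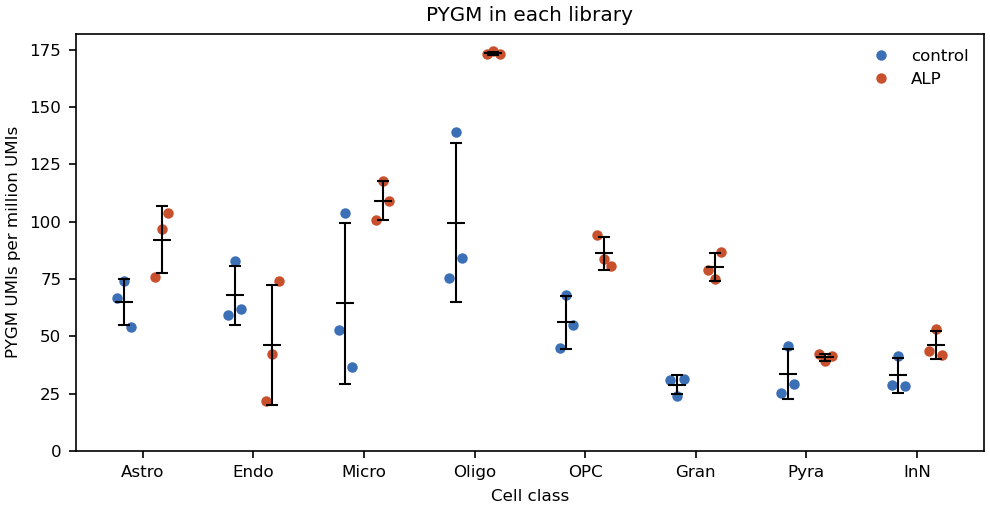
PYGM level (vertical axis, CPM) in each library by cell class, without scaling factors, with points for control (blue) and ALP (red) libraries and black bars for group means ± SD. The ALP libraries lie above the control libraries without overlap in Astro, Oligo, OPC, Gran and InN, of which Oligo and Gran were called.

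In 5 others of the 8 classes PYGM passed the filter, and it had the same direction but was not called. In the other excitatory nuclei, outside these classes, the log2 fold change was -0.08 (SE 0.317, edgeR adjusted p = 0.938). In Endo-like nuclei it had 24, 6 and 10 UMIs in control and 1, 4 and 5 UMIs in ALP TSs, below the filter. It was 62.6, 76.9 and 54.8 CPM in control and 84.5, 99.7 and 118 CPM in ALP Astro-like nuclei (log2 fold change 0.67, SE 0.213, edgeR adjusted p = 0.132). OPC-like nuclei had 45.6, 73.8 and 58.3 CPM against 102, 88.9 and 87.9 CPM (0.71, SE 0.216, edgeR adjusted p = 0.126). InN-like nuclei had 27.5, 41.7 and 27.6 CPM against 48.0, 54.9 and 46.8 CPM (0.64, SE 0.221, edgeR adjusted p = 0.162). In none of these 3 classes did the groups overlap. Within the 5 clusters of InN-like nuclei they overlapped in 3, and the pooled ALP level was higher in 4 and lower in 1. In Micro-like nuclei the log2 fold change was 1.10 (SE 0.304, edgeR adjusted p = 0.123) and the groups overlapped, and in Pyra-like nuclei it was 0.59 (adjusted p = 0.483). In all nuclei summed PYGM was 43.6, 57.2 and 49.1 CPM in control and 83.2, 89.0 and 97.6 CPM in ALP TSs. This difference, a log2 fold change of 0.85 (SE 0.154), did not pass the threshold (edgeR adjusted p = 0.0679). Without Control 2, the smallest library, PYGM was called in Micro-like and OPC-like nuclei too, with a log2 fold change of 0.86 in the latter (edgeR adjusted p = 0.0432). Over all genes that setting called 305 of 7343 in Micro-like and 412 of 10109 in OPC-like nuclei.

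Among all 8 glycogen genes, 35 pairs of gene and class were tested, with 26 (74.3%) higher and 9 lower in ALP TSs, beside 50.4% higher over all genes and classes. The 2 PYGM pairs (5.71%, beside 1.32%) were the only ones called. The 35 pairs repeat at most 8 genes over classes of the same animals and are not independent. UGP2 was 73.4, 101 and 65.2 CPM in control and 108, 102 and 104 CPM in ALP OPC-like nuclei (log2 fold change 0.45, edgeR adjusted p = 0.303). The gap between the closest values of the groups was small. PGM2 was 12.2, 10.7 and 13.8 CPM in control and 8.22, 5.58 and 8.92 CPM in ALP Oligo-like nuclei (log2 fold change -0.74, edgeR adjusted p = 0.248). These came from 3 to 45 UMIs per library, with the control values the higher ones.

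Among the hexose-phase genes 20 pairs were tested, 10 in each direction, and none was called, beside 1.32% of all pairs. The groups did not overlap in 5 of the 20, near the 20.8% of all pairs. An unadjusted p under 0.05 was found for 4, near the 16.7% of all pairs. PFKP was lower in ALP TSs in 4 classes without overlap. It was 127, 142 and 193 CPM in control and 110, 94.4 and 107 CPM in ALP Gran-like nuclei (log2 fold change -0.57, SE 0.196, edgeR adjusted p = 0.147). In Pyra-like nuclei it was 99.0, 116 and 127 CPM against 84.7, 87.2 and 74.9 CPM (-0.43, edgeR adjusted p = 0.461). Of the 4 Pyra clusters the groups overlapped in 3, and the summed Oligo markers reached 2001 CPM and the InN markers 810 CPM in a control library, against at most 222 and 98.5 CPM in ALP TSs. The part of these in the result was not tested. In InN-like nuclei it was 71.4, 80.6 and 90.9 CPM against 65.5, 63.4 and 55.6 CPM (-0.39, edgeR adjusted p = 0.240). The log2 fold change in Astro-like nuclei was -0.60 (edgeR adjusted p = 0.236). None of these passed the adjusted threshold.

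HK2 in Micro-like nuclei was 264, 206 and 273 CPM in control and 164, 190 and 158 CPM in ALP TSs, from 201, 17 and 99 and 42, 95 and 50 UMIs. The groups did not overlap, but the difference was not called (log2 fold change -0.57, SE 0.212, edgeR adjusted p = 0.25). The share of nuclei with an HK2 UMI was 29.8% ± 2.14 in control and 19.3% ± 1.86 in ALP Micro-like nuclei, beside 0.0569% to 0.0853% in the Oligo-like nuclei of every library but Control 2, which had none. Thinned to 1000 UMIs, which left out 248 of 827 control and 410 of 786 ALP nuclei, it was 21.1% ± 1.01 and 12.3% ± 2.93 (SD, n = 3 each, exact permutation p = 0.1). Micro-like nuclei fell into 2 clusters, of which the smaller held 68.1% ALP nuclei and less HK2, pooled 90.5 and 58.8 CPM in control and ALP TSs. In Micro-like nuclei the 4 neuron markers summed to 1566 to 1921 CPM in control and 2135 to 2339 CPM in ALP TSs, the 7 Oligo markers (MBP and MOBP at 0) to 1547 to 1715 and 1291 to 1455 CPM, and the 8 Micro markers to 2346 to 3872 and 3518 to 3672 CPM. The part of these markers in the result was not tested. Within the larger cluster HK2 was 291, 234 and 250 CPM in control and 196, 222 and 201 CPM in ALP TSs, again without overlap. PC in Micro-like nuclei was 53.8, 48.6 and 41.4 CPM in control and 27.4, 29.97 and 41.2 CPM in ALP TSs, from 4 to 41 UMIs per library (log2 fold change -0.56, edgeR adjusted p = 0.477). The closest values of the groups were nearly equal.

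The PFKFB regulators had 16 pairs tested, the triose phase 7 and the lactate dehydrogenases 8, with 0 called by edgeR (1.32% over all genes) and 0 at an unadjusted p under 0.05 (16.7%). Of the 9 pairs of pyruvate dehydrogenase kinases, 8 were higher in ALP TSs (50.4% over all genes) and 0 were called by edgeR. These 9 pairs repeat at most 3 genes over classes of the same animals and are not independent. An unadjusted p under 0.05 was found for 2 of them, near the 16.7% of all genes. PDK1 in Pyra-like nuclei was 23.3, 25.7 and 13.4 CPM in control and 38.0, 39.9 and 30.3 CPM in ALP TSs (log2 fold change 0.68, edgeR adjusted p = 0.431). PDK4 in Astro-like nuclei had a log2 fold change of 0.75 (edgeR adjusted p = 0.147) without overlap. In Astro-like nuclei 6 of 18 genes did not overlap between the groups, against 22.3% of all genes there, and the median log2 fold change was 0.38 over the 18 genes and -0.01 over all genes. In OPC-like nuclei this held for 5 of 11 genes, PYGM, UGP2, LDHA, PC and PDK1, all higher in ALP TSs, against 18.7% of all genes there.

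In all nuclei summed 22 of the 35 genes were tested and 0 were called by edgeR, as were 0% of all genes. An unadjusted p under 0.05 was found for 4 of them, against 23.4% of all genes. DESeq2 called 2 of the 22 genes, beside 1740 of all 22749 genes. In 5 genes the groups did not overlap, against 27.2% of all genes. Beside FBP1 and PYGM these were PDK1, PDK2 and PCK2. PDK1 was 17.8, 20.7 and 17.2 CPM in control and 29.1, 25.7 and 26.4 CPM in ALP TSs (log2 fold change 0.55, edgeR adjusted p = 0.109). PDK2 was 0.773, 1.39 and 1.06 CPM against 2.10, 2.07 and 1.96 CPM (1.00, edgeR adjusted p = 0.162). PCK2, the mitochondrial phosphoenolpyruvate carboxykinase, was 2.44, 2.56 and 3.03 CPM against 3.73, 3.71 and 3.70 CPM (0.47, edgeR adjusted p = 0.383). All 3 were higher in each ALP library than in any control library.

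Whether a difference between ALP and control TSs was itself particular to a class was tested as an interaction over all classes. None of the 136 pairs was called by edgeR at an adjusted p under 0.05, against 0.113% of all pairs, and 11 had an unadjusted p under 0.05. The smallest p was that of PYGM in Endo-like nuclei, whose difference was lower than that of the other classes by a log2 value of -1.71 (edgeR adjusted p = 0.0656). PYGM in Gran-like nuclei (0.77, adjusted p = 0.255) and PDK4 in Astro-like nuclei (1.28, adjusted p = 0.277) were not called. FBP1 was below the filter in this fit, so its difference in Astro-like nuclei was not tested there against that in other classes. Without the filter on low counts FBP1 entered the fit, and no interaction was called. Few FBP1 UMIs in the other classes limit that fit.

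Among 57 other genes of these pathways, 170 pairs of gene and class were tested between the groups and 4 (2.35%, beside 1.32% of all pairs) were called, all of them BSG. BSG encodes basigin, which carries the monocarboxylate transporters of lactate to the cell surface. In Oligo-like nuclei it was 87.2, 168 and 126 CPM in control and 347, 326 and 401 CPM in ALP TSs (log2 fold change 1.56, SE 0.235, edgeR adjusted p = 0.0132). In OPC-like nuclei it was 71.1, 71.1 and 111 CPM against 225, 180 and 190 CPM (1.20, SE 0.206, edgeR adjusted p = 0.0349). In Astro-like nuclei it was 104, 125 and 119 CPM against 209, 227 and 259 CPM (1.00, SE 0.176, edgeR adjusted p = 0.0429). In Gran-like nuclei it was 44.4, 29.4 and 41.5 CPM against 74.2, 84.8 and 96.3 CPM (1.05, SE 0.209, edgeR adjusted p = 0.0408). None of the groups overlapped. Each of these 4 calls was lost under at least 3 of 15 alternatives, among them the omission of ALP 1 and of ALP 3. Over all genes those omissions left 1 and 2 calls in Oligo-like and 0 and 0 in OPC-like nuclei. They left 2 and 2 in Astro-like and 0 and 0 in Gran-like nuclei.

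The glycogen regulators (38 pairs), other hexose and triose enzymes (28), the pyruvate dehydrogenase complex (26) and the pentose phosphate pathway (24) had 0 pairs called by edgeR, beside 1.32% of all pairs. At an unadjusted p under 0.05 there were 0, 1, 3 and 5 of their pairs. These were 0%, 3.57%, 11.5% and 20.8%, beside 16.7% of all pairs. The smallest adjusted p among these was that of RPE, a pentose phosphate epimerase, in Astro-like nuclei. It was 78.8, 107 and 108 CPM in control and 44.5, 64.3 and 44.1 CPM in ALP TSs (log2 fold change -0.90, edgeR adjusted p = 0.0766). DLD, the dihydrolipoamide dehydrogenase of the pyruvate dehydrogenase complex, had a log2 fold change of 0.74 in InN-like nuclei (edgeR adjusted p = 0.128). GAA, the lysosomal glycogen-degrading glucosidase, had a log2 fold change of 0.64 in OPC-like nuclei (edgeR adjusted p = 0.370). LDHD, the D-lactate dehydrogenase, had 0.65 in Oligo-like nuclei (edgeR adjusted p = 0.212).

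The 7 suffixed features carry the symbols of genes that themselves had 0 UMIs or, for PKM, 6 UMIs in the kept nuclei. Across classes GAPDHli2, named after the glyceraldehyde-3-phosphate dehydrogenase, was called higher in Astro-like nuclei with a log2 fold change of 4.09. PGM1li1 (1.54), LDHBli12 (1.26), PKMli1 (1.13) and ENO1li3 (1.05) were also called higher in Astro-like nuclei. TPI1li1 (1.89), PGAM1li1 (1.70), ENO1li3 (1.48), PKMli1 (1.30) and GAPDHli2 (1.15) were called higher in Endo-like nuclei, as LDHA and PGK1 were. None was called between ALP and control TSs by edgeR. The smallest adjusted p were those of TPI1li1 in Gran-like nuclei (log2 fold change 0.77, edgeR adjusted p = 0.0924) and LDHBli12 in InN-like nuclei (0.89, edgeR adjusted p = 0.0989).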

How the data were processed

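The authors deposited raw counts, the UMIs per feature and barcode that Cell Ranger wrote after alignment to the TreeshrewDB genome. The labels name Cell Ranger 3.1.0 and the matrix headers 6.1.2, and the build, the use of strand and of introns are not given in the sources used here. The filters kept nuclei with between 200 and 2500 genes and no more than 5% of UMIs from mitochondrial genes. They were clustered with scanpy 1.11.5 and leidenalg 0.10.2 on 2000 variable genes, none of the described genes among them, 30 principal components and 20 neighbours at resolution 2, which gave 34 clusters. Clusters were named from marker lists, and 6.45% of nuclei stayed unnamed. Other excitatory nuclei (8.35%), a shallow cluster mostly from Control 3 among them, lay outside the classes compared. So did ependymal-like (0.669%) and mural-like nuclei (0.368%). Values of these nuclei are given only where the text names them. The InN-like nuclei include 1 cluster of 434 led by haemoglobin and mitochondrial genes. Between 0.434% and 3.69% of the kept nuclei of a library were marked as doublets and were left out only as an alternative. Barcodes shared by 2 libraries were at most 0.465%.

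Sums of UMIs over at least 10 nuclei of a class were fitted in R 4.3.3 by the quasi-likelihood test of edgeR 4.0.16 (TMM, minimum count 10, Benjamini-Hochberg adjustment over all genes tested), and by DESeq2 1.42.0 as an alternative. CPM carry the TMM factors of their own fit, so levels across classes and within a class differ slightly. Limits on a count of 0 use 3 counts and cover counting error only. The scripts were tested on simulated counts. Values of each library are given for genes called between the groups, for the 2 genes per class with the smallest p among those without overlap, for FBP1 in every class and, across classes, for the 2 genes per role with the largest fold. Other pairs named were chosen after their values were seen. The 35 genes, the companion genes and these rules were chosen with earlier results of these data known.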

Additional observations from a re-analysis of the deposited data

Results flagged for a closer look

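Barcodes over the limit of 2500 genes took no part in the comparisons of the text. In them an FBP1 UMI was found in 1.53%, 1.07% and 2.04% of the barcodes of Control 1, 2 and 3 and in 4.90%, 6.64% and 3.58% of those of ALP 1, 2 and 3. The mean over 3 libraries was 1.55% ± 0.482 for control TSs and 5.04% ± 1.53 for ALP TSs (SD), and it was looked at because it lies in data set aside and above the control samples. The 3 ALP libraries were all above the 3 control libraries. The median depth of these barcodes was 8788 UMIs in control and 8621.5 UMIs in ALP TSs. When they were clustered together with the other nuclei, the share was 2.34% and 6.55% in Pyra-like and 1.71% and 7.47% in other excitatory barcodes, while the 21 control and 5 ALP Astro-like barcodes over the limit were too few for a share. With these barcodes included, FBP1 in Pyra-like nuclei had 14, 6 and 6 UMIs in control and 57, 56 and 18 UMIs in ALP TSs and was not called (log2 fold change 1.58, SE 0.447, edgeR adjusted p = 0.122). The part of doublets in these shares was not tested.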

How the results depend on the processing

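The count of 3 pairs of gene and class called between ALP and control TSs became 1 with the replicate number as a block and 1 to 5 when a library was left out in turn. It was 3 under every other alternative, with the same pairs except without the upper limit on genes, where PYGM was called in Micro-like in place of Gran-like nuclei. Over all genes the replicate block gave 6 calls in Astro-like, 12 in Gran-like and 309 in Oligo-like nuclei. The main fit gave 27, 174 and 577. These counts were 2, 0 and 2 without ALP 3 and 189, 334 and 1005 without Control 2. The replicate numbers name libraries without pairing them, since the deviations of same-numbered libraries correlated between -0.228 and 0.0604 within a class. With this block FBP1 in Astro-like nuclei stayed called (adjusted p = 0.00534), PYGM was not called in Gran-like (0.0512) or Oligo-like nuclei (0.0570), and BSG was not called in Astro-like, Gran-like and OPC-like nuclei. Without the upper limit PYGM in Gran-like nuclei had a log2 fold change of 1.18 (adjusted p = 0.0508). In all nuclei summed the count of 0 became 2 (FBP1 and PYGM) with DESeq2, where 1740 of all 22749 genes were called. It became 2 without the filter on low counts, where 3386 of 54978 genes were called. When a library was left out it was 0 to 2, the 2 being without Control 2, where 2245 of 24392 genes were called. Of the 39 pairs called across classes 8 remained at a log2 fold change beyond 2, and 37 to 42 were called when a library was left out. The interaction count was 0 under all alternatives. Over 23 named pairs and 345 alternatives no direction reversed, 309 kept their side of the threshold, 29 lost and 7 gained a call, and the cause was not tested. These pairs had been picked as called or without overlap between the groups, so a kept direction was largely set by that choice. A term for the libraries with Y-linked transcripts was chosen after seeing the data and changed only the call of BSG in Gran-like nuclei. With 3 libraries per group and few UMIs for PYGL, GYS1, PCK2, PDK2 and FBP1, differences in these genes were hardly detectable in most classes.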
